A study of Mus musculus with 9 samples.

Results

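The genes described here are the 10 genes that license replication origins, *Orc1*, *Orc2*, *Orc3*, *Orc4*, *Orc5*, *Orc6*, *Cdc6*, *Cdt1*, *Gmnn* and *Dbf4*, chosen by name and by their role in licensing, out of 37273 annotated mouse genes, of which 22367 are protein-coding. For each of them, every BAP1 binding site (peak) was taken whose middle lay within 1 kb of any annotated transcription start site (TSS) of the gene, a position called gene-proximal below. All 10 genes had such a peak, and together they had 12 of the 13164 peaks in the list.

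Licensing is the step at which a cell marks where its DNA may be copied. The origin recognition complex (ORC) sits on the DNA and, with Cdc6 and Cdt1, loads the MCM helicase onto it, and geminin (*Gmnn*) holds Cdt1 inactive once copying has begun, so that each stretch of DNA is copied only once in a cell cycle. Dbf4 is the regulatory subunit of the Cdc7 kinase, which phosphorylates loaded MCM helicase and so allows origins to fire. BAP1 is a nuclear deubiquitinase that removes ubiquitin from histone H2A, and B cell precursors pass through bursts of division as they develop.

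The data came from ChIP-Seq in Ba/F3, a murine cell line of B cell precursors that grows in interleukin 3. The peak list was made from 2 immunoprecipitations: one with an anti-BAP1 antibody from wild type cells, and one with the anti-FLAG M2 antibody from cells that stably expressed murine BAP1 with a triple FLAG tag and had been selected with puromycin, so that tagged protein was made from an introduced construct and in addition to the endogenous protein. The series has 9 samples, and its input DNA samples and its H2AK119ub samples, from wild type cells and from the Cas9-edited *Bap1* knockout clones KO3 and KO4, were not analysed here. One list stands for both immunoprecipitations, with 1 sample each, so from this list neither antibody could be compared with the other, and there was no replicate check. The paper itself reports that the 2 datasets were highly concordant. Its supplement describes read intensities for its peaks, which were not used here. Each peak is a 200 bp interval with no score, height or p-value, and the depth behind it is unknown. The place of a peak in the list followed its distance to the nearest TSS (Spearman's rho = 0.852 across 13164 peaks, which share the libraries), so list rank was not read as strength. The list measures binding and not expression, so the labelled cell type could not be checked against marker genes.

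The DNA under the peaks is shown first for the genes to which the results return. Each stretch was read from the mm9 genome, is written 5′ to 3′ on the strand of the gene, and is the part of the peak outside annotated untranslated regions. Capitals mark the exact words of the motifs that are counted further on. The overlapping peaks of *Orc4* are represented by the one nearer its TSS.
Orc1 (chr4:108251942-108252034, plus strand): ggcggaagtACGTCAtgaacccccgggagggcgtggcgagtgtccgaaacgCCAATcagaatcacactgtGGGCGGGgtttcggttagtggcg
Orc2 (chr1:58562193-58562392, minus strand): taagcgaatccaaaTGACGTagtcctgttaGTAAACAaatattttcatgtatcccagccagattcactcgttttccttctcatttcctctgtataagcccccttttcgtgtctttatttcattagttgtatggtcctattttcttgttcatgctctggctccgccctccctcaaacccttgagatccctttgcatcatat
Orc4 (chr2:48804797-48804942, minus strand): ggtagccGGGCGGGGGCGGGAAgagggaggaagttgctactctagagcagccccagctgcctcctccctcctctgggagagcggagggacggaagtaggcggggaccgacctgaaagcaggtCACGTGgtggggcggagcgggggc
Orc5 (chr5:22056194-22056269, minus strand): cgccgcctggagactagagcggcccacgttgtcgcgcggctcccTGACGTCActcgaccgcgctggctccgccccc
Cdc6 (chr11:98768946-98769114, plus strand): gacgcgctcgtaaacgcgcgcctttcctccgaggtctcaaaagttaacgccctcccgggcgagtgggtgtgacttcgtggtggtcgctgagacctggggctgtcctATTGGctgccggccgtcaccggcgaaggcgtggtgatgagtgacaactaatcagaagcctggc
Cdt1 (chr8:125091734-125091914, plus strand): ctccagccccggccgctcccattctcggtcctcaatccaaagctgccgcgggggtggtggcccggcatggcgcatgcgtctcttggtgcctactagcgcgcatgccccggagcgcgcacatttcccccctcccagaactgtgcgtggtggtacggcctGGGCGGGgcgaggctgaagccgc
Gmnn (chr13:24853793-24853973, minus strand): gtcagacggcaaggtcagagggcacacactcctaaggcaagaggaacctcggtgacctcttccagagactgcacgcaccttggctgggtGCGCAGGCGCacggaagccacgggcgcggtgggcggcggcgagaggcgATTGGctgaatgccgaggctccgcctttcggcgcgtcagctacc
Dbf4 (chr5:8422717-8422849, minus strand): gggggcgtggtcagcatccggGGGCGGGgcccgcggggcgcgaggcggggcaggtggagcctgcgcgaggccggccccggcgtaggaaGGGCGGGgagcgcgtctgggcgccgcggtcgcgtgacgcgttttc
The stretch from *Orc2* is AT-rich, at 41% GC over its whole peak, while that of *Dbf4* is the richest in GC of the 12, at 78%.

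The count of 10 of 10 genes is 100%, with a 95% Wilson interval of 72.2% to 100% that covers counting error only. Over the whole annotation, 26.2% of all genes (9760 of 37273) and 39.6% of protein-coding genes (8850 of 22367) had a gene-proximal peak. *Orc2* and *Orc4* had 2 peaks each and the other 8 genes had 1. Of protein-coding genes with a peak, 25.5% had 2 or more.

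All 6 genes of the ORC were bound, but the peaks sat at different places on their promoters. Distances are given from the nearest TSS of the gene to the middle of the peak, with a minus sign for a peak upstream. *Orc1* (ENSMUSG00000028587.11, chr4:108252028-108288633, plus strand), the largest subunit, had its peak at chr4:108251835-108252034, 94 bp upstream (-94 bp) of the TSS, and 193 of the 200 bases lay before the gene. The same peak lay almost on the TSS of *Prpf38a*, a splicing factor gene on the other strand, at a distance of 7 bp.

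*Orc2* (ENSMUSG00000026037.8, chr1:58519615-58561953, minus strand) had a pair of separate peaks whose starts were 442 bp apart, with 242 bp between their edges. One, at chr1:58561751-58561950, lay at 103 bp, wholly within the annotated 5′ untranslated region. The other, at chr1:58562193-58562392, lay at -339 bp, outside the gene. They flanked the TSS of *Orc2* without covering it, and between them also lay the TSS of *Gm15834*, a long intergenic non-coding RNA on the other strand.

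*Orc3* (ENSMUSG00000040044.5, chr4:34518045-34562193, minus strand) had its peak at chr4:34562083-34562282, at 11 bp, the smallest distance of the 12. It ran from 89 bases of upstream sequence through 35 bases of 5′ untranslated region and 45 coding bases into 31 bases of intron. Its middle was 24 bp upstream (-24 bp) of the TSS of *Rars2*, which encodes the mitochondrial arginyl-tRNA synthetase.

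*Orc4* (ENSMUSG00000026761.6, chr2:48758344-48805797, minus strand) had peaks at chr2:48804844-48805043 and chr2:48804743-48804942, at -147 and -46 bp. Their starts were 101 bp apart and they shared 99 bp. Both lay near a TSS inside the gene's span: measured from its most upstream TSS, they were at 854 and 955 bp, within an intron of the longer transcripts. The TSS of *Mbd5*, which encodes a protein with a methyl-CpG-binding domain, lay close by on the other strand, with the peaks at -87 and -188 bp from it.

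*Orc5* (ENSMUSG00000029012.5, chr5:21992303-22056247, minus strand) had its peak at chr5:22056070-22056269, at 24 bp, with its middle in an exon. The TSS of the long intergenic non-coding RNA *1700030G06Rik* was on the other strand, and the peak was at -86 bp from it. *Orc6* (ENSMUSG00000031697.5, chr8:87823531-87832177, plus strand), the smallest subunit, had its peak at chr8:87823668-87823867, at 236 bp. That was the only nearest peak of the 10 genes beyond 200 bp of a TSS: 159 of its bases were 5′ untranslated region and 41 were coding. *Vps35*, a subunit of the retromer complex, had its TSS on the other strand, with the peak at -355 bp from it.

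The remaining 4 genes had their peaks at nearly the same place. *Cdc6* (ENSMUSG00000017499.9, chr11:98769115-98785254, plus strand), which helps the ORC to load the helicase, had its peak at chr11:98768946-98769145, at -70 bp. *Cdt1* (ENSMUSG00000006585.2, chr8:125091915-125097028, plus strand), the other loader, had its peak at chr8:125091734-125091933, at -82 bp. Both peaks covered the TSS and lay mostly before it, by 169 and 181 bases.

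*Gmnn* (ENSMUSG00000006715.4, chr13:24843714-24853792, minus strand), the inhibitor of Cdt1, had its peak at chr13:24853774-24853973, at -81 bp, with 181 bases before the TSS as in *Cdt1*. *Dbf4* (ENSMUSG00000002297.9, chr5:8396973-8422716, minus strand), the kinase subunit, had its peak at chr5:8422681-8422880, at -64 bp. Of these 4 genes *Dbf4* alone had another gene's TSS within 1 kb of its peak: *Slc25a40*, of the mitochondrial carrier family, at -70 bp. *Cdc6*, *Cdt1* and *Gmnn* shared their peak with no other annotated TSS.

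**Figure D1:**
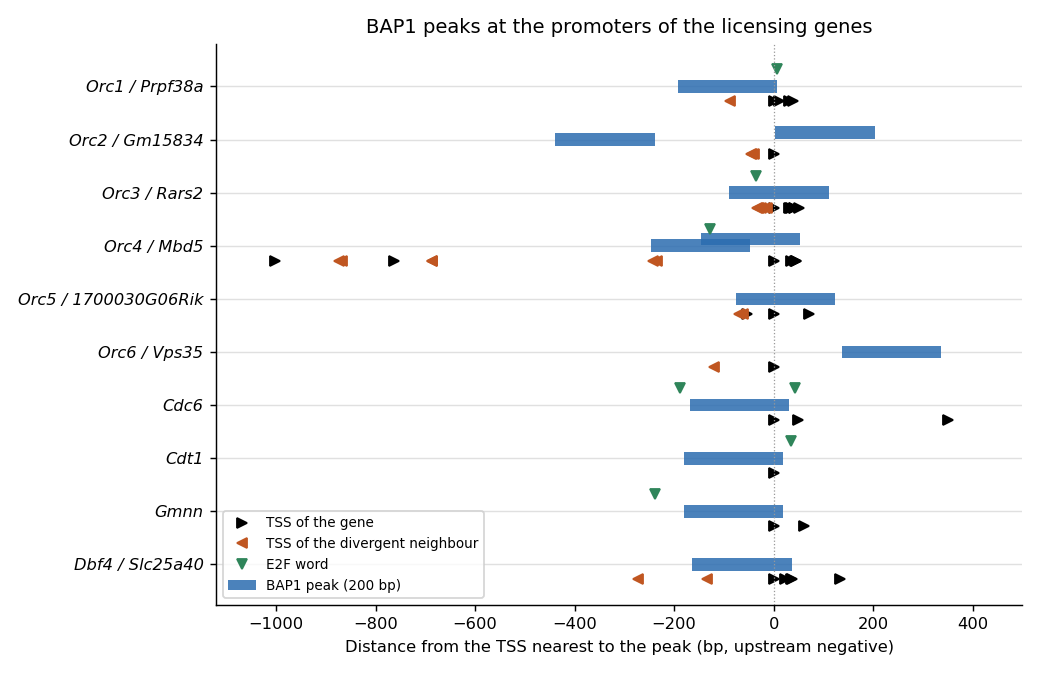
Map of the 12 gene-proximal BAP1 peaks of the 10 licensing genes. The x axis is the distance in bp from the TSS of the gene nearest to its peak, upstream to the left, blue bars are peaks of 200 bp, black arrowheads are TSSs of the gene, orange arrowheads are TSSs of the neighbour on the other strand, and green marks are the E2F words found in the peaks widened by 150 bp on either side; TSSs outside the plotted range are not drawn. The peaks of *Cdc6*, *Cdt1*, *Gmnn* and *Dbf4* line up between -82 and -64 bp by their middles, while those of the ORC genes are spread.

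The 10 genes have 55 annotated transcripts that start at 52 TSSs, and 17 of these TSSs had no peak middle within 1 kb. Most of them were in *Orc4*, with 5 of 12, and *Orc3*, with 4 of 11. *Orc6* and *Cdt1* have 1 TSS each, and *Gmnn* has 2, and none of these lacked a peak. Of the 12 peaks, 8 covered a TSS of the gene, and the 4 that did not were both peaks of *Orc2*, the more upstream peak of *Orc4* and the peak of *Orc6*. Over all gene-proximal peaks the median distance to the nearest TSS of any gene, in either direction, was 53 bp. A peak reaches 100 bp to either side of its middle, so covering a TSS was usual among them.

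Taking for each gene its nearest peak, the median distance was -55 bp over the 10 genes, with quartiles of -78.3 and 20.8 bp. Over the 8850 protein-coding genes with a peak, the median was -33 bp, with quartiles of -73 and -1 bp. The peak was upstream of the TSS in 6 of the 10 genes, against 75.1% of protein-coding genes with a peak. Within the ORC only *Orc1* and *Orc4* had their nearest peak upstream, 2 of 6, with a median of 17.5 bp and a range of -94 to 236 bp. The range that held *Cdc6*, *Cdt1*, *Gmnn* and *Dbf4*, -82 to -64 bp, held the nearest peak of 8.14% of protein-coding genes with a peak, and since its limits are these genes' own values, nothing is read from their falling in it. By all 12 peaks, the median was -67 bp from the nearest TSS of the gene itself. Over 10073 gene-proximal peaks it was -28 bp from the nearest TSS of any gene, with 69.8% upstream. These measures differ: the *Orc1* peak, at -94 bp from its own TSS, was at 7 bp from that of *Prpf38a*. The medians are therefore not compared. With 10 genes chosen by name, these are descriptions of position, and no difference was tested.

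**Figure D2:**
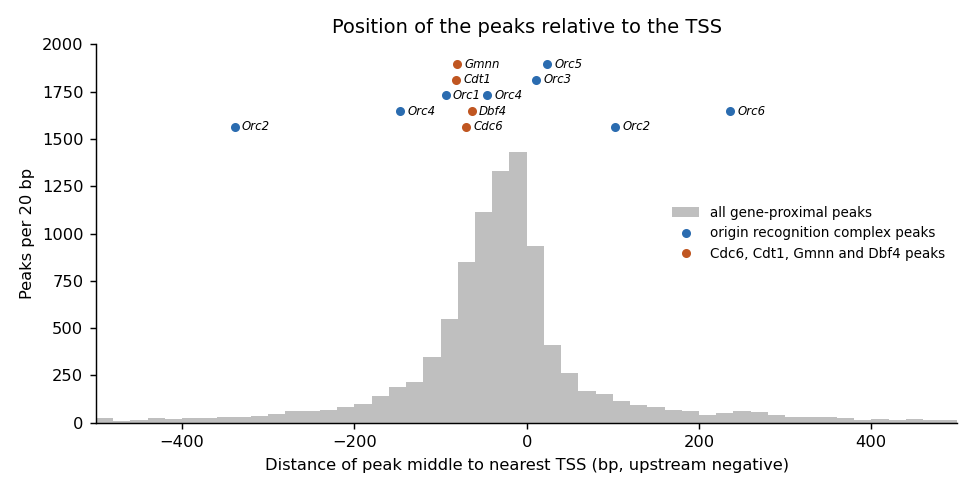
Histogram of the distance from peak middle to the nearest TSS of any gene for the 10073 gene-proximal peaks (grey, 20 bp bins, upstream negative, with peaks beyond 500 bp not drawn). The 12 peaks of the licensing genes are points above it, placed by the nearest TSS of their own gene, at heights chosen only to separate the names. Where another gene's TSS is nearer to the peak, as for *Orc1*, the point is not on the measure of the histogram. Points in blue are ORC genes and points in orange the other 4 genes, which fall together at -82 to -64 bp, left of the median of all gene-proximal peaks at -28 bp.

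Most of the licensing genes share their promoter with a gene that runs the other way. A divergent partner was counted where a gene on the other strand starts within 1 kb and both genes point away from each other. All 6 ORC genes and *Dbf4* had one, 7 of 10, against 27.9% of protein-coding genes with a peak and 13.9% of all protein-coding genes. For 5 of the 10 the partner was itself protein-coding (*Prpf38a*, *Rars2*, *Mbd5*, *Vps35* and *Slc25a40*), against 22.3% of protein-coding genes with a peak. A peak at such a promoter cannot be assigned to either gene from its position. The TSSs nearest to the peak were 13 bp apart for *Orc3* and *Rars2*, 62 bp for *Orc5* and *1700030G06Rik*, 87 bp for *Orc1* and *Prpf38a*, 134 bp for *Dbf4* and *Slc25a40*, and 234 bp for *Orc4* and *Mbd5*, with *Orc6* and *Vps35* within that range. In *Orc2* the spacing to *Gm15834* was 39 bp for one peak and 46 bp for the other, since *Gm15834* has several TSSs. *Cdc6*, *Cdt1* and *Gmnn* had no divergent partner.

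The peaks lay in DNA rich in G and C and in CpG, as gene-proximal peaks did in general. The CpG ratio is the number of CpG over that which the C and G content of the sequence would give. The 12 peaks had a median GC content of 66.8% and a median CpG ratio of 0.939, with quartiles of 0.842 and 1.07. All peaks had medians of 65% and 0.816, gene-proximal peaks 67% and 0.875, and gene-distal peaks, those further than 1 kb from every TSS, 54% and 0.333. So the licensing genes were close to the gene-proximal medians in both measures and far from the gene-distal ones.

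Individual peaks departed from that. The upstream peak of *Orc2* had 41% GC, lower than all but 2.64% of the peaks in the list, and a CpG ratio of 0.673, while its other peak had 68% and 0.867. The more upstream peak of *Orc4* had the lowest CpG ratio of the 12, 0.443, at 64% GC, and its overlapping neighbour had 0.769 at 71%. *Dbf4* had the highest GC content, 78%, above 93.0% of all peaks, with a CpG ratio of 1.13. The peaks of *Orc1* (60.5% GC) and *Orc6* (62.5% GC) had similar CpG ratios of 1.09 and 1.13 at less GC. The other 5 peaks, of *Orc3*, *Orc5*, *Cdc6*, *Cdt1* and *Gmnn*, lay between 61.5% and 69% GC.

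**Figure D3:**
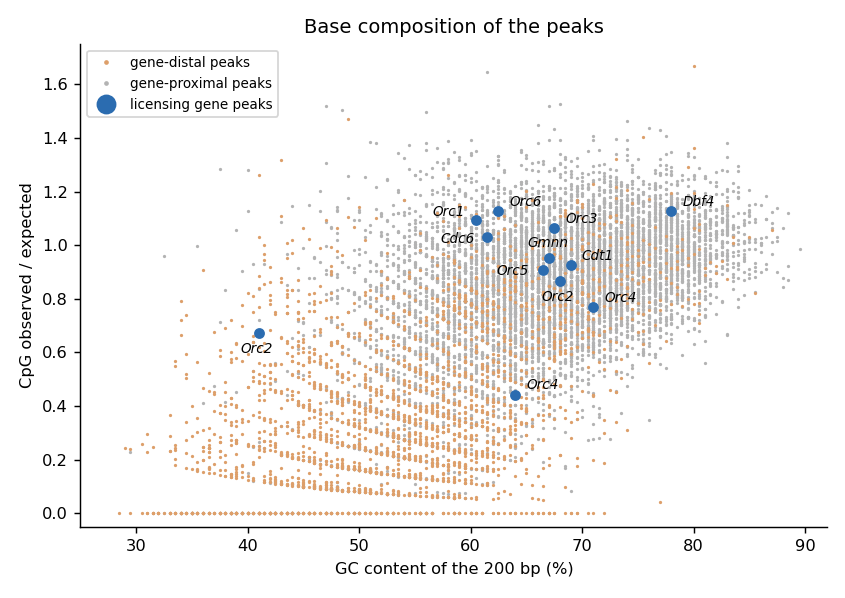
GC content in percent (x axis) and CpG ratio (y axis) of the 200 bp of each peak: grey dots are gene-proximal peaks, orange dots gene-distal peaks, and blue points the 12 peaks of the licensing genes; 2 gene-distal peaks lie above the axis, at ratios of up to 2.70. Most of the 12 lie among the gene-proximal peaks, while a peak of *Orc2* at 41% GC and a peak of *Orc4* at a ratio of 0.443 stand apart.

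Over 1001 bp centred on the most upstream TSS, the promoters of the 10 genes had a median CpG ratio of 0.868, against 0.761 for protein-coding genes with a peak and 0.294 for those without one. *Gmnn* had the highest value, 0.959. *Orc4* had the lowest, 0.218, at its most upstream TSS, and 0.565 at the TSS nearest its peaks.

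Genes of the licensing step are known targets of E2F factors, which drive transcription on entry into S phase, so the peaks were searched for E2F words and for 12 other motifs. The exact words, on both strands, were TTTCCCGC, TTTGGCGC, TTTCGCGC, TTTGCCGC and TTCCCGCC for E2F, TTTGAA for the cell cycle homology region (CHR), CCAAT for NFY, GGGCGGG for SP/KLF, CCGGAAG for ETS, AAGATGG for YY1, TGACGTCA for the full and TGACGT for the shorter cAMP response element (CRE), ACTACAA for ZNF143/THAP11, CACGTG for the E-box, GTAAACA for FOXK and TATAAA for TATA. For NRF1 the word was GCGC, then any base, then TGCGC. The full CRE contains the shorter one on both strands, and the E2F word of *Orc4* overlaps an SP/KLF word. A match is a stretch of letters, not a shown binding site.

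Within the 200 bp of the peaks, E2F words were found in 3 of 12 peaks, at *Orc3* and in the shared part of both *Orc4* peaks, against 5.94% of gene-proximal peaks and 3.54% of the 22367 protein-coding promoters at the same length. The ETS word was in 4 peaks (*Orc1*, *Orc3*, *Orc5* and one of *Orc4*), against 20.2% of gene-proximal peaks and 9.38% of promoters. The CCAAT word was in 5 (*Orc1*, *Orc2*, *Orc6*, *Cdc6* and *Gmnn*), against 30.0% and 27.3%, and the SP/KLF word in 5 (*Orc1*, *Cdt1*, *Dbf4* and both of *Orc4*), against 50.7% and 27.7%. No single motif was common to all 12 peaks.

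Other words were found in 1 to 3 of the genes. *Orc5* held the full CRE, in capitals in its sequence above, which 3.35% of gene-proximal peaks and 1.93% of promoters hold. *Orc1*, *Orc2* and *Orc5* held the shorter CRE, against 10.9% of gene-proximal peaks and 6.59% of promoters. The AT-rich peak of *Orc2* also held the FOXK word, against 2.09% and 1.61%. *Gmnn* held the NRF1 word (12.4% and 5.09%), *Orc4* the E-box (8.06% and 5.55%) and *Dbf4* the CHR word (4.58% and 8.17%). None of the 12 held the YY1 word (6.33% and 5.38%), the ZNF143/THAP11 word (2.92% and 2.27%) or the TATA word (2.41% and 8.19%).

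When each peak was widened by 150 bp on either side, E2F words were found in 7 of the 12, at *Orc1*, *Orc3*, *Orc4*, *Cdc6*, *Cdt1* and *Gmnn*. By gene this is 6 of 10, since the 1 word of *Orc4* was counted in both of its overlapping peaks. Among gene-proximal peaks widened in the same way 12.8% held one, and among protein-coding promoters at 500 bp 7.62%. The 7 words, 2 of them at *Cdc6* and 1 at *Orc4*, follow with 10 bases on either side, the word in capitals. Their place relative to peak and TSS differs between the genes.
Orc1 (chr4:108252022-108252049, plus strand): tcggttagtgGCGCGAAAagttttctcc
Orc3 (chr4:34562215-34562242, minus strand): catgcctcccTTTCCCGCacgccccgcc
Orc4 (chr2:48804911-48804938, minus strand): gccgggcgggGGCGGGAAgagggaggaa
Cdc6 (chr11:98768914-98768941, plus strand): aaaactacacTTCCCGCCaggctttacg
Cdc6 (chr11:98769145-98769172, plus strand): gtagagcggcTTTGGCGCgagttgactt
Cdt1 (chr8:125091937-125091964, plus strand): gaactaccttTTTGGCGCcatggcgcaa
Gmnn (chr13:24854018-24854045, minus strand): tattctcgtgTTTGCCGCtagtgagagt
The words of *Orc3* and *Orc4* were inside the peak, at -35 and -128 bp from the TSS. *Orc1*, *Cdc6* and *Cdt1* had a word at the downstream end of the peak, at 7, 43 and 35 bp from the TSS, that is 101, 113 and 117 bp from the peak middle. The word of *Orc1* straddled the edge of the peak, and those of *Cdc6* and *Cdt1* lay beyond it. *Cdc6* had a further word at -188 bp, and *Gmnn* had its word at -239 bp, both beyond the upstream edge. *Orc2*, *Orc5*, *Orc6* and *Dbf4* had none in the widened window. ETS was in 6 widened peaks (28.4% of gene-proximal ones), SP/KLF in 7 (65.2%) and CCAAT still in 5 (47.0%). The YY1 word, absent from the 200 bp of all 12 peaks, was in the widened window of 1 peak, at *Orc2* (10.8% of promoters at 500 bp), and the ZNF143/THAP11 word in that of 1, at *Orc5* (4.88% of these promoters). The E-box was in 2, both at *Orc4* (14.2% of gene-proximal ones). The TATA word was still in 0 (7.20%), and the words for CHR, NRF1, FOXK and both forms of the CRE were in the same number of peaks as before.

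**Figure D4:**
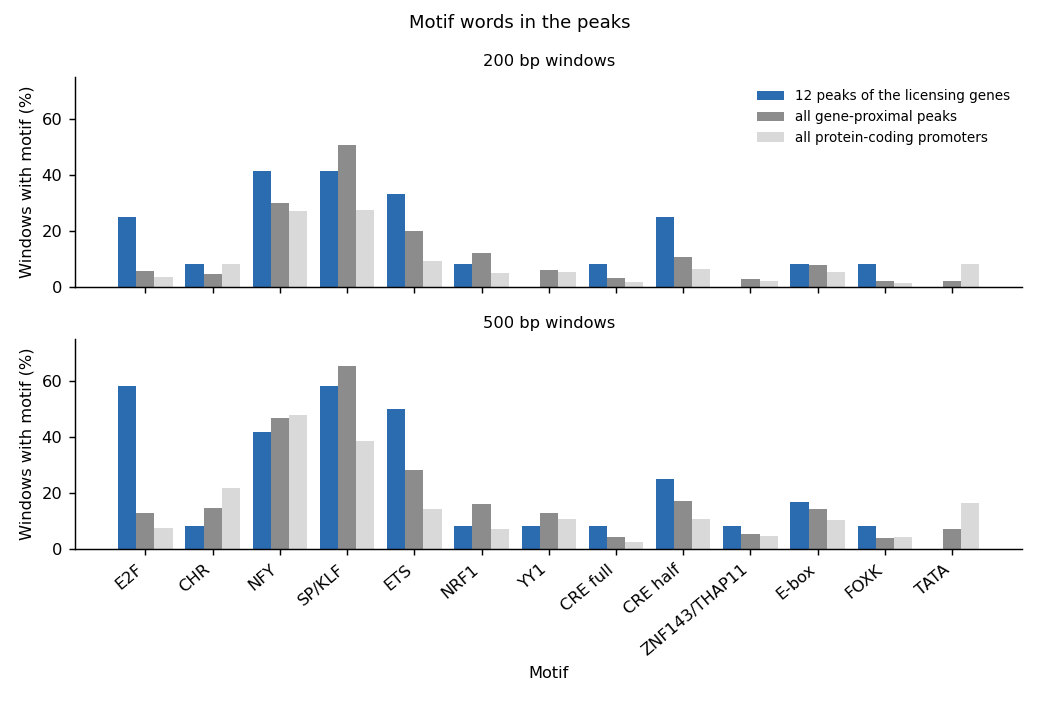
Share of windows, in percent, that hold each of the 13 motifs, for the 12 peaks of the licensing genes (blue), all gene-proximal peaks (dark grey) and all protein-coding promoters (light grey), in windows of 200 bp (top) and 500 bp (bottom). The E2F bar of the licensing genes stands for 3 of 12 peaks in the upper panel and 7 of 12 in the lower one, against 5.94% and 12.8% of gene-proximal peaks; the other bars of the licensing genes rest on 0 to 7 of 12.

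The wider machinery that acts on licensed origins was listed by role, 43 further genes, of which 5 carry an older symbol in the annotation. A gene-proximal peak was present at 40 of the 43 (93.0%, 95% Wilson interval 81.4% to 97.6%), beside 39.6% of protein-coding genes. All 11 genes of the replicative helicase (the MCM subunits, Cdc45 and the GINS complex), all 12 firing factors and all 15 genes of licensing control, which covers the ubiquitin ligases that remove Cdt1 and other regulators of the step, had one. Without the paralogs described next, this was 38 of 38. Every gene of the wider lists without a peak was a paralog, so leaving the paralogs out fixes this count. No interval is given for it.

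The 3 genes without a peak were all paralogs of licensing proteins that are not needed for licensing itself. *Gmnc* and *Mcidas*, geminin relatives that act in multiciliated cells, had their nearest peak 209549 and 41232 bp away. *Mcmdc2*, a meiotic relative of the MCM subunits, had its nearest 32483 bp away. *Mcm8*, which acts in repair, had a peak at -62 bp, and its partner *Mcm9* had peaks at 384 and 519 bp. So 2 of 5 paralogs had a listed peak (40%, 11.8% to 76.9%). The promoter CpG ratios of the 3 genes with no listed peak were 0.462 for *Gmnc*, 0.783 for *Mcidas* and 0.525 for *Mcmdc2*.

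Of the 40 bound genes in the wider lists, 15 had 2 or more peaks, beside 25.5% of protein-coding genes with a peak. In the replicative helicase these were *Mcm4* (-215 and -70 bp), *Mcm5* (-308 and -65 bp), *Mcm7*, with 3 peaks (-220, -2 and 81 bp), and the GINS subunit *Gins1* (-616 and 144 bp). Among the firing factors they were the S phase cyclins *Ccne2* (-118 and 6 bp) and *Ccna2* (-212 and -87 bp). Licensing control had 8 of its 15 genes in this group. Its ubiquitin ligase subunits were *Cul4a* (-747 and -57 bp), *Dtl* (-93 and 417 bp), *Cul1* (-20 and 264 bp) and *Rbx1* (-143 and 75 bp), with *Fzr1* (-204 and 0 bp), an activator of the anaphase-promoting complex. The others were *Pcna*, the sliding clamp (41 and 83 bp), the histone acetyltransferase *Kat7* (-153 and -75 bp) and the histone methyltransferase *Setd8* (-114 and -87 bp). The paralog *Mcm9* makes up the 15.

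By position, the replicative helicase (median -70 bp) and the firing factors (median -72.5 bp) had their nearest peak upstream in 10 of 11 and 10 of 12 genes, like *Cdc6*, *Cdt1*, *Gmnn* and *Dbf4*. So did 75.1% of protein-coding genes with a peak. Licensing control had a median of -25 bp, with 10 of 15 upstream. A divergent partner was present for 5 of 11, 4 of 12 and 8 of 15 genes of these lists, 17 of 38, against 6 of 6 in the ORC. Among protein-coding genes with a peak the share was 27.9%. None of these differences was tested.

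**Figure D5:**
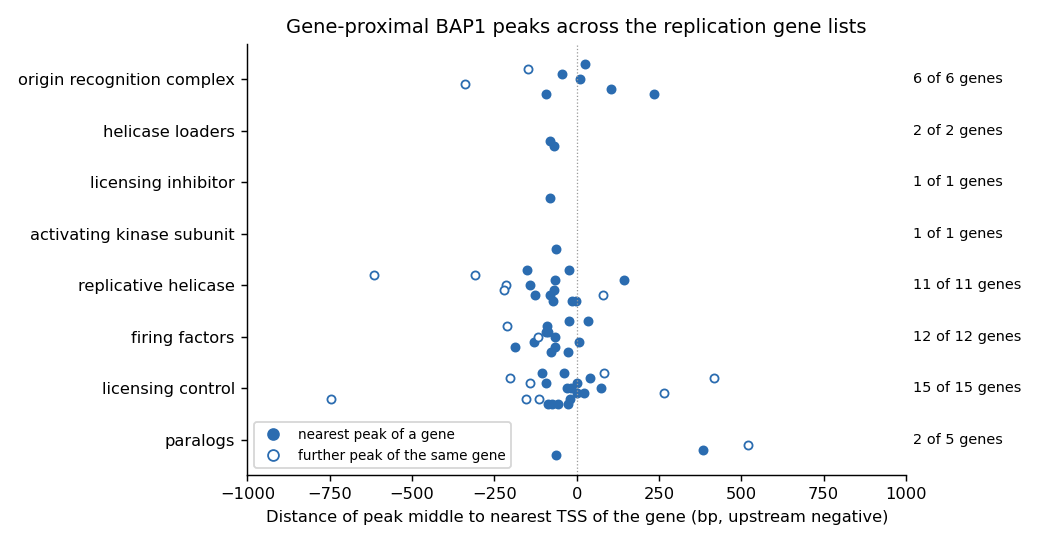
Distance in bp from peak middle to the nearest TSS of the gene (x axis, upstream negative) for every gene-proximal peak of the 10 licensing genes (upper 4 rows) and of the 43 genes of the wider lists (lower 4 rows). Filled points are the nearest peak of a gene, open points its further peaks, vertical offsets only separate points, and the text at the right gives the genes with a peak, which is every gene but 3 paralogs.

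Beyond the promoters, 14 further peaks lay within 50 kb of a TSS of 6 of the licensing genes, none of them inside the gene itself. Among protein-coding genes with a gene-proximal peak 69.3% had at least 1 such further peak, with a median of 1 per gene, which is also the median of the 10 licensing genes. Most were at promoters of neighbours, and 3 had no annotated TSS within 1 kb. The neighbourhood of *Cdc6* held 6 of the 14: at -44184 bp at *Wipf2*, at 17165, 39122 and 43418 bp at *Rara*, the retinoic acid receptor alpha gene, and at 12861 and 21802 bp with no TSS nearby. *Cdt1* had 3, at 8929 bp at *Aprt*, at 43551 bp at *Galns* and *Trappc2l*, and at -10226 bp with no TSS nearby. *Gmnn* had 2, at -38862 and -39249 bp, both at *BC005537*. *Orc1* had 1 at 15809 bp (*Cc2d1b* and *Gm12743*), *Orc2* 1 at 35959 bp (*Nif3l1* and *Ppil3*) and *Orc3* 1 at 26290 bp (*Akirin2*). Each distance is from the nearest TSS of the gene. For *Orc1*, *Orc2* and *Orc3* that TSS lay inside the gene, 24668, 23660 and 38048 bp downstream of its most upstream TSS. For the downstream peaks of *Cdc6* it lay 12665 bp downstream. These peaks are therefore further from the promoters with the gene-proximal peaks than the distances given. *Orc4*, *Orc5*, *Orc6* and *Dbf4* had 0, so their only peaks within 50 kb were the gene-proximal ones. Distance does not assign a peak to a gene, and no link between these peaks and the licensing genes was tested.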

How the data were processed

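ChIP-Seq was performed in Ba/F3 cells. The authors mapped reads to mm9 with Bowtie 1.0.0 and called peaks against input DNA with MACS 1.4.2, per the paper's methods and the submitters' processing notes. The deposited list holds positions alone (peak limits in bp, converted here to 1-based), without counts, signal or score. The threshold and the rule that joined both immunoprecipitations are not given in the sources used here. No per-sample columns were left unmatched (0).

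TSSs came from GENCODE M1 (NCBIM37, mm9), chromosomes 1 to 19, X and Y. Distances run from the peak middle to the nearest TSS of the gene, or of any gene for the set of all gene-proximal peaks. The genes named were all 10 licensing genes, every gene with a TSS within 1 kb of their peaks, and genes of the wider lists with no peak or with 2 or more. *Mcm8* and the genes at peaks up to 50 kb away were named outside this rule, after their values were seen. Genes, lists, motifs and alternatives were chosen with earlier results of these data known. The intervals printed with shares are 95% Wilson intervals, which cover counting error only. No test was run, since there is 1 list and no replicate. Scripts (Python 3.11.15, numpy 2.4.6, pysam 0.24.0, matplotlib 3.10.9) were tested on simulated data: 10000 of 10000 distances equaled those of bedtools 2.31.1 and 2000 of 2000 planted words were found.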

Additional observations from a re-analysis of the deposited data

How the results depend on the processing

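All 10 licensing genes kept a peak with windows of 500 bp, 2000 bp and 5000 bp around the TSS, from the peak edge, with 1 TSS per gene, with protein-coding transcripts only and after merging, and 9 did with a window of 200 bp, where *Orc6* was lost. The median distance of their peaks, -67 bp by the middle, was 0 bp from the nearest edge, -26.5 bp from the most upstream TSS and -75.5 bp after peaks within 500 bp were merged, which left 11415 intervals and 10 at these genes. Their median CpG ratio was 0.817 over 500 bp on either side of the peak middle, against 0.718 for all peaks and 0.769 for gene-proximal peaks there. The genes with a divergent partner were 7 at distances of 500 bp and 2000 bp, against 25.5% and 30.3% of protein-coding genes with a peak, and 6, against 23.8%, from the most upstream TSS alone, an alternative chosen after seeing the data. Of the wider lists, 39 to 40 of 43 genes had a peak across the settings. In 500 bp centred on the TSS nearest to each peak, E2F words were found for 7 of the 12 peaks, against 3 in the peaks. CHR was found for 2 against 1, YY1 for 2 against 0 and ZNF143/THAP11 for 1 against 0. The E-box was found for 3 against 1 and FOXK for 0 against 1. Both peaks of *Orc2* share this TSS, as do both of *Orc4*, so a word there counted for both peaks. Among protein-coding promoters at 500 bp the shares were 7.62% for E2F, 21.9% for CHR and 10.8% for YY1. They were 4.88% for ZNF143/THAP11, 10.4% for the E-box and 4.28% for FOXK.

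A stricter peak threshold was not run because the list holds no score, and depth is unknown, so a gene without a listed peak is not shown to be unbound. No paired analysis was possible because 1 list stands for both immunoprecipitations and no result comes from a test.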
